A study of Mus musculus with 42 samples.

Results

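The enzymes that attach ubiquitin to proteins and remove it were followed through naive, effector, rested and memory CD4 T cells of the mouse. Members were the genes whose reporter on the array carried 1 gene symbol, and whose symbol began with Ube, Fbxo, Fbxw or Fbxl, or with Usp, Uba, Rnf, Trim or Cul and a digit. Rnf128 was left out. The rule found 81 reporters for 70 genes, of 3230 genes with a single-gene reporter, and the brightest reporter stood for each of the 10 genes that had several. The 70 genes were 10 conjugating enzymes, 3 cullins, 14 F-box proteins, 2 ligases of the Ube3 and Ube4 families, 16 Rnf proteins, 8 Trim proteins and 17 ubiquitin-specific proteases. No gene of the activating enzymes was among them.

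Ubiquitin is passed from an activating enzyme (E1) to a conjugating enzyme (E2) and then, with the help of a ligase (E3), to a target protein. Cullins are scaffolds of large ligases, in which F-box proteins pick the target, while most Rnf and Trim proteins carry a RING domain that binds the loaded conjugating enzyme. Ubiquitin-specific proteases cut ubiquitin off again. In T cells ubiquitination is known to set the strength of antigen receptor signalling and the decision between activation and tolerance.

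RNA was labelled with 33P and hybridised to cDNA arrays of 9600 spots, with 2 arrays (a and b) for each of 21 samples in 7 groups of 3. All cells came from AND T cell receptor transgenic mice that also carried a GFP transgene; their receptor recognises a pigeon cytochrome C peptide on I-Ek. Naive cells were splenic CD4+ cells with the surface type CD44lo CD62Lhi CD45RBhi CD25-, although the labels' source field names thymus. Effector Th1 and effector Th2 cells had been stimulated for 4 days in culture with cells that present antigen, in conditions for Th1 or for Th2. Rested Th1 and rested Th2 cells had then been kept for 3 more days without the presenting cells. Memory Th1 and memory Th2 cells were rested cells that had been transferred into thymectomised, irradiated mice with T cell-depleted bone marrow and sorted after 4 to 12 weeks. For memory Th2 samples the titles read M-Th2 and the descriptions RM-Th2; the titles were followed, and all memory Th2 values rest on them. The labels do not say whether samples 1 to 3 of a group came from separate animals or cultures. The p-values therefore measure only the spread between samples of a group, pooled over all 7 groups, and this spread may be technical.

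Levels below are log2(quantile-normalised intensity + 1), the mean of both arrays of a sample, and a difference is called at an adjusted p of 0.05 or less in limma over all 4992 reporters. The unit step of this scale understates changes of dim reporters. The median reporter had a mean level of 3.13, and the members' mean levels ran from 1.37 to 8.52, with 29 members below the median reporter. Samples of a group correlated at 0.893 to 0.974 (Pearson, across reporters). The spread differed between groups: the median SD of members was 0.50 in memory Th1, 0.46 in rested Th1 and 0.43 in memory Th2 cells. It was 0.31 in effector Th1, 0.27 in rested Th2 and 0.26 in naive and in effector Th2 cells. The pooled spread may thus understate the error of comparisons with rested Th1 or memory cells. In 13 pairs of samples with the same number, the Th1 and Th2 samples of every stage among them, the ratio of array a to array b was the same at each spot to within an SD of 6.88e-05 on the log2 scale, so that the 21 samples held 10 distinct patterns. The ratios between duplicate spots of an array were shared by the same pairs, to within an SD of 6.84e-05. Whether arrays a and b, and duplicate spots, are separate measurements of a sample was not tested, and they were averaged before any test. No pattern was shared across the steps from naive to effector, effector to rested or rested to memory, and for these steps stage and pattern cannot be told apart. None of the 13 CD4 T cell, 8 B cell and 5 CD8 T and NK cell marker genes sought had a single-gene reporter, so the labelled cell type could not be checked.

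The promoters of 4 members whose levels are described below are shown: Ube2v1, the gene that marks the set, Rnf114 (the 5′-most of its 2 windows), Trim28 and Trim44. Each is the RefSeq window (GRCm38.p6) from 250 bases before to 50 bases after the annotated start, written 5′ to 3′ on the gene's strand. Capitals mark matches, on either strand, to GGGCGG (GC box), CCGGAAG (ETS site) and TGACTCA (AP-1 site). CCAAT and TTTGAA (the CHR element) were also searched, and these 4 windows held no match to either. Ube2v1 lies at chr2:167631956-167632255 on the minus strand, Rnf114 at chr2:167492395-167492694 on the plus strand, Trim28 at chr7:13023902-13024201 on the plus strand and Trim44 at chr2:102400851-102401150 on the minus strand.
Ube2v1: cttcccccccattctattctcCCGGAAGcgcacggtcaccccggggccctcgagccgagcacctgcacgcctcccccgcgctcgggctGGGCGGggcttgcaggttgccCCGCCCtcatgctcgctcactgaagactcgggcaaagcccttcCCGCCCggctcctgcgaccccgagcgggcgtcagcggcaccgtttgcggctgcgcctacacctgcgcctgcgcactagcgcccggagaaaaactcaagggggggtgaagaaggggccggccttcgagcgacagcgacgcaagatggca
Rnf114: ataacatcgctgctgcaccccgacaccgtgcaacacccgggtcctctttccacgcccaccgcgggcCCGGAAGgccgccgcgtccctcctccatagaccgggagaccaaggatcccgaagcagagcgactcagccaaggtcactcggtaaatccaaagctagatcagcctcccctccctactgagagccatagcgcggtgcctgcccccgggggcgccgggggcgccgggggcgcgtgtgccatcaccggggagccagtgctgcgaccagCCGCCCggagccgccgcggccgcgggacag
Trim28: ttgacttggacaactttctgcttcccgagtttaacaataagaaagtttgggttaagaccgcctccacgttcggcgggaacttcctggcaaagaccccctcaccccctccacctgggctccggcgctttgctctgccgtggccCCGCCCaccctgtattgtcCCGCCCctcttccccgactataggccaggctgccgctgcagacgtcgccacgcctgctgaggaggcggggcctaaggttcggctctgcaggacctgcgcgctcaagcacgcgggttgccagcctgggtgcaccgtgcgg
Trim44: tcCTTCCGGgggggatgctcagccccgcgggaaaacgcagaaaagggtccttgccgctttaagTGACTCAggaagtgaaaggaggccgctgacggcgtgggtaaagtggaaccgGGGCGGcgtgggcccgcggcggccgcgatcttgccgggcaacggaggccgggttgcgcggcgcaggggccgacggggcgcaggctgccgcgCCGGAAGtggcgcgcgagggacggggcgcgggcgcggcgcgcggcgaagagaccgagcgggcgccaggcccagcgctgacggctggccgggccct
The Ube2v1 window held 3 GC boxes and 1 ETS site, that of Rnf114 1 of each, that of Trim28 2 GC boxes, and that of Trim44 1 GC box, 2 ETS sites and 1 AP-1 site. Of the 70 windows found for 52 members, 75.7% held a GC box, against 35.7% of all 32851 windows in the table. An ETS site stood in 27.1% of members' windows and 8.86% of all windows, and an AP-1 site in 8.57% and 5.2%. CCAAT stood in 25.7% of members' windows and 37.4% of all, and TTTGAA in 17.1% and 17.9%. The matches describe letters only, and several windows can belong to 1 gene. All windows include those of genes without a reporter on the array. The shares therefore do not set these enzymes apart from other genes of the array.

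The question of how far ubiquitin enzymes vary over the life of a CD4 T cell was put first to all 7 groups at once. By the moderated F test, 20 of 70 members (28.6%) differed among the groups, against 27.2% of all reporters, so the share was close to the background. They were 3 of 10 conjugating enzymes, 3 of 14 F-box proteins, 7 of 16 Rnf proteins, 5 of 8 Trim proteins and 2 of 17 proteases, with none of the 3 cullins and neither of the 2 Ube3 and Ube4 ligases. The group with the highest mean was effector Th1 for Rnf130, Rnf14, Ube2a and Usp5, and effector Th2 for Rnf114, Trim27 and Trim28. It was rested Th1 for Rnf220, Trim30d, Trim44 and Usp39, rested Th2 for Fbxw5, Rnf167 and Ube2s, a memory group for Fbxo21, Rnf44, Fbxo7, Rnf144a and Trim36, and naive for Ube2v1.

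**Figure D1:**
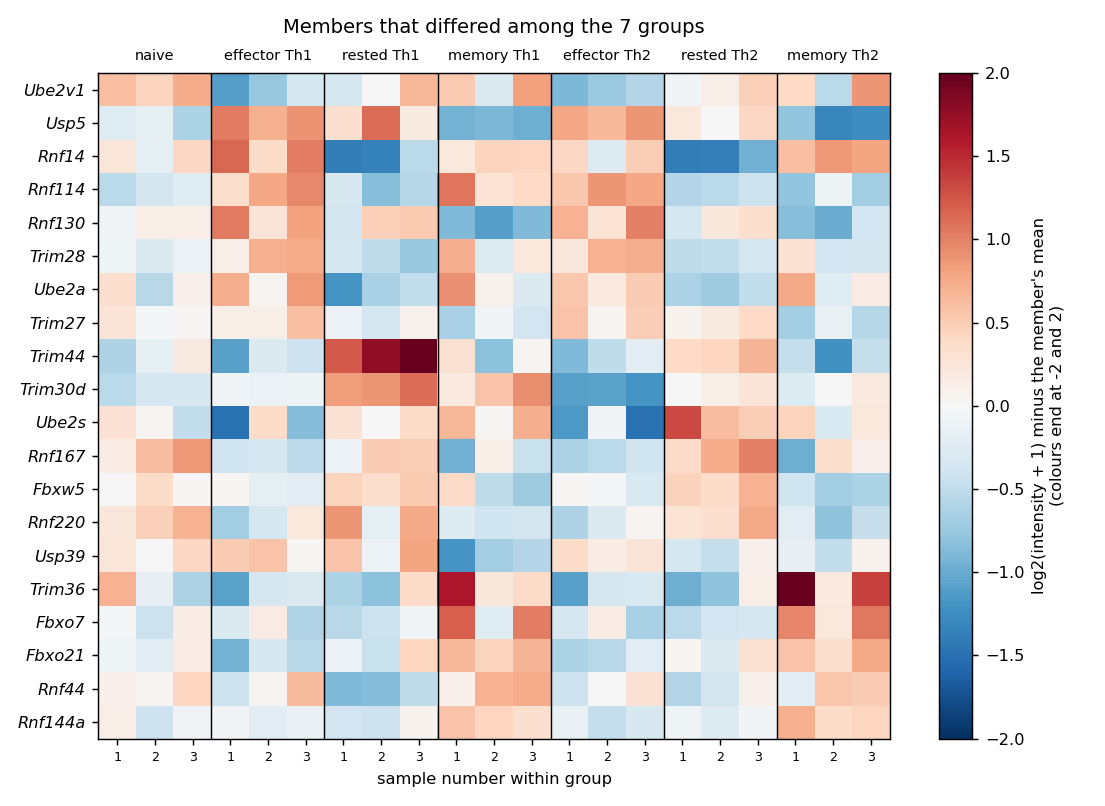
Level of the 20 members called by the F test in each of the 21 samples, as log2(intensity + 1) minus the member's mean over all samples (colour, ending at -2 and 2), with the samples ordered by group on the x axis. Trim44 and Trim30d have their highest group mean in rested Th1 cells, Rnf14 stands lowest in both rested groups, and Usp5 has its highest group mean in effector Th1 cells and its lowest in memory Th2 cells.

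The share of members called was below that of all reporters in 4 of 6 steps and above it in the rest and memory steps of Th2 cells; the difference in shares was not tested. Effector Th1 against naive cells gave 5 of 70 members (7.14%), 2 higher and 3 lower, where 9.88% of all reporters were called (5.53% higher, 4.35% lower). Effector Th2 against naive also gave 5 (7.14%), 2 higher and 3 lower, against 9.13% (5.31% higher, 3.83% lower). The median change of all 70 members was -0.18 in the Th1 and -0.22 in the Th2 comparison, beside -0.05 and -0.06 over all reporters.

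From effector to rested cells, 7 of 70 members were called in Th1 cells, 3 higher and 4 lower, against 16.2% of reporters (7.61% higher, 8.61% lower). The same step in Th2 cells gave 6 (8.57%), 3 in each direction, against 7.57% (3.45% higher, 4.13% lower). From rested to memory cells, 11 members (15.7%) were called in Th1 cells, 7 higher and 4 lower, against 17.8% (9.42% higher, 8.35% lower). The Th2 memory step gave 5 (7.14%), 2 higher and 3 lower, against 3.91% (2.28% higher, 1.62% lower). Memory against naive cells gave 1 member in Th1 (0.781% of reporters) and 0 in Th2 (0.28%), where 16 members had an unadjusted p under 0.05 in limma. With the sample number as a block, the counts of the 6 steps became 9, 8, 16, 11, 20 and 13 in the order given, where 16.7%, 15.2%, 27.3%, 15.8%, 32.2% and 14.4% of all reporters were called, so the background rose too. Those of memory against naive became 6 and 0, beside 5.97% and 1.4% of reporters. With the shared spot pattern as a random block they became 26 and 22, beside 29.8% and 23.8% of reporters. Members called only with the spot pattern as a block are not named. Below, statements that a member was not called do not cover that block.

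The counts moved in fits that left out 1 of the 6 samples compared. The share of all reporters called in these fits is not given here, so a fall is not read as a trait of the members. With any 1 sample left out, 2 to 3 members were called in each effector step. The Th2 rest step gave 3 to 4, with 3 when effector Th2 sample 3 was left out. The Th1 memory step gave 7 to 15, with 7 when rested Th1 sample 1 was left out. The Th2 memory step fell to 2 or 3 members without rested Th2 sample 1, 2 or 3 or memory Th2 sample 1 or 3. The single member of memory Th1 against naive was not called without any 1 naive sample or memory Th1 sample 3, and 3 members were called without memory Th1 sample 2.

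**Figure D2:**
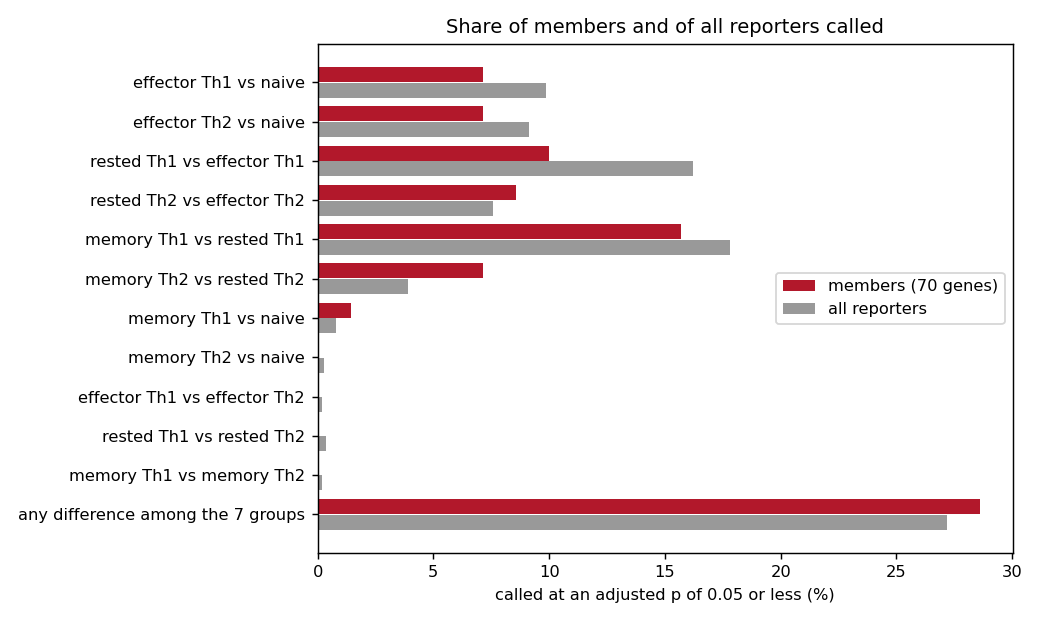
Share of the 70 members (red) and of all 4992 reporters (grey) called at an adjusted p of 0.05 or less, in percent on the x axis, for each comparison on the y axis. The bars of the F test reach 28.6% and 27.2%, and those between Th1 and Th2 cells stay at or near 0.

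Among the conjugating enzymes, Ube2v1 had its lowest values in effector cells. It encodes a catalytically inactive variant that pairs with Ube2n to build chains linked through lysine 63. Its levels were 7.01, 6.85 and 7.14 in naive samples 1 to 3, 5.31, 5.64 and 6.06 in effector Th1 samples, and 5.50, 5.66 and 5.82 in effector Th2 samples. All 6 effector samples lay below all naive samples. Most members were named because called groups did not overlap, so here and below lack of overlap is no further support. Groups did not overlap for 28.3% and 29.5% of all reporters between naive and effector Th1 or Th2 cells. The shares were 28.8% and 29.1% in the rest steps and 26.7% and 22.3% in the memory steps of Th1 and Th2 cells. In bulk RNA, here and below, fewer cells that express a gene and less RNA per cell cannot be told apart. The change was -1.33 ± 0.35 (SE, adjusted p = 0.0176) in Th1 and -1.34 ± 0.35 (adjusted p = 0.0176) in Th2 effectors. Each call was lost in 4 of 6 fits that left out 1 sample: naive 1, naive 3 and samples 1 and 2 of the effector group, with adjusted p up to 0.0970 in Th1 and 0.0775 in Th2. Means were 6.51 ± 0.52 (SD, n = 3) in rested Th1, 6.59 ± 0.27 in rested Th2, 6.75 ± 0.58 in memory Th1 and 6.65 ± 0.72 in memory Th2 cells, between the effector and naive means. With the sample number as a block, the differences of rested from effector cells were 0.84 (adjusted p = 0.0213) in Th1 and 0.93 (adjusted p = 0.0179) in Th2 cells; without it neither was called.

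Ube2a, a homologue of yeast Rad6 that ubiquitinates histone H2B and PCNA, was lower in rested than in effector Th1 cells. Effector Th1 samples measured 5.47, 4.79 and 5.59, rested Th1 samples 3.55, 4.09 and 4.24, and memory Th1 samples 5.65, 4.82 and 4.44. The rested samples lay below both other groups. The fall at rest was -1.32 ± 0.33 (adjusted p = 0.0089), not called without effector Th1 sample 3 or rested Th1 sample 1 (adjusted p up to 0.0546). In Th2 cells the effector samples measured 5.27, 4.93 and 5.25 and the rested samples 4.10, 4.02 and 4.25, also without overlap, a difference of -1.03 ± 0.33 (adjusted p = 0.0701, and 0.0191 with the sample number as a block). The rise to memory Th1 cells, 1.01 ± 0.33 (adjusted p = 0.0424), was called in 2 of 6 fits that each left out 1 sample and lost without rested Th1 sample 1 or 2 or memory Th1 sample 1 or 2 (adjusted p up to 0.192).

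Ube2s, which extends chains through lysine 11 with the anaphase-promoting complex, gave opposite directions in its reporters. The brighter reporter read 7.36, 8.45 and 7.02 in effector Th2 and 9.83, 9.13 and 9.01 in rested Th2 samples, without overlap. Its change was 1.72 ± 0.42 (adjusted p = 0.0129), lost without effector Th2 sample 1 or 3 or rested Th2 sample 1 (adjusted p up to 0.0992). The dimmer reporter changed by -1.05 ± 0.44 (adjusted p = 0.184), and no direction is given for the gene. The other 7 conjugating enzymes (Ube2d2a, Ube2d3, Ube2h, Ube2k, Ube2l3, Ube2q1 and Ube2r2) were called in no comparison without a block. With the sample number as a block, Ube2d2a was called in both effector groups against naive cells and in the Th1 memory step, and Ube2r2 in the Th2 memory step. In those 3 comparisons the brighter Ube2d2a reporter changed by -0.69, -0.67 and 0.59. A dimmer one changed by -0.35, -0.17 and -0.01 and was not called without the block.

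By their brightest reporters, the 3 cullins were called in no comparison without the sample number as a block. Cul3, the scaffold of ligases with BTB-domain adaptors, measured 6.06, 5.99 and 6.54 in naive and 3.77, 4.63 and 5.36 in rested Th1 samples, the group with its lowest mean. Its change from effector to rested Th1 was -0.94 ± 0.35 (adjusted p = 0.0767), and 0.0115 once the sample number was a block. With the block it was also called in effector Th2 against naive cells (-0.82, adjusted p = 0.039) and in the Th1 memory step (0.76, adjusted p = 0.0322). A second Cul3 reporter of mean level 5.09, beside 5.42 for the first, changed by -1.06 ± 0.41 (adjusted p = 0.0923) at rest in Th1 cells and was called in the Th1 memory step without the block (1.25 ± 0.41, adjusted p = 0.0432). A dimmer Cul3 reporter changed by -0.11 and -0.09 in those steps and was not called. Cul1, the scaffold of SCF ligases, had group means from 3.94 ± 0.06 (effector Th1) to 4.74 ± 0.17 (rested Th2). Cul5, which works with SOCS-box proteins, ran from 1.95 ± 0.15 (memory Th2) to 2.86 ± 0.37 (rested Th2).

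Of the 14 F-box proteins, Fbxo7 and Fbxo8 were called in the step from rested to memory Th1 cells and Fbxw5 in that of Th2 cells. Fbxw5 measured 3.47, 3.36 and 3.69 in rested Th2 and 2.60, 2.31 and 2.36 in memory Th2 samples, every memory sample lower. The change was -1.08 ± 0.25 (adjusted p = 0.0175), lost without rested Th2 sample 1 or 3 or memory Th2 sample 3 (adjusted p up to 0.0834). With the sample number as a block, Fbxw5 was also called in the Th1 memory step (-0.72, adjusted p = 0.0206). Fbxo8, which carries a Sec7 domain, measured 1.86, 2.52 and 3.28 in rested Th1 and 3.96, 3.52 and 3.39 in memory Th1 samples. The rested samples were spread widely and all lay below the memory samples. Its change of 1.07 (adjusted p = 0.0214) was lost without rested Th1 sample 1 or 2 or memory Th1 sample 1 (adjusted p up to 0.123). Fbxo7, a gene of hereditary parkinsonism in humans, changed by 1.01 (adjusted p = 0.0478) between overlapping groups, and the call was lost in 4 of 6 fits, without rested Th1 sample 1 or 2 or memory Th1 sample 1 or 3 (adjusted p up to 0.182). In Th2 cells Fbxo7 measured 1.67, 1.82 and 1.85 in rested and 3.19, 2.41 and 3.25 in memory samples, without overlap. That difference was 1.17 ± 0.34 (adjusted p = 0.0633, and 0.0288 with the sample number as a block). Fbxo15, of the same class, was called only with the block, in both rest steps and the Th1 memory step.

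Fbxo21 was called by the F test and, only with the sample number as a block, in the Th1 rest step (0.56, adjusted p = 0.0453) and the Th1 memory step (0.64, adjusted p = 0.021). It measured 7.18, 6.96 and 7.19 in memory Th1 and 7.08, 6.86 and 7.27 in memory Th2 samples, against 5.57, 6.19 and 5.96 in effector Th1 and 5.88, 5.95 and 6.31 in effector Th2 samples. Every memory sample lay above every effector sample. Fbxw7, which marks cyclin E, Myc and Notch for degradation, varied with the sample number: number 1 ran from 7.53 to 8.06, number 2 from 6.89 to 7.69 and number 3 from 5.50 to 6.42 over the 7 groups. Its group means lay between 6.77 ± 0.89 (effector Th2) and 7.38 ± 0.86 (memory Th2). What the number stands for was not tested.

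Neither Ube3b, a HECT ligase, nor Ube4b, a U-box ligase, was called. Ube3b had group means from 2.16 ± 0.35 (naive) to 2.65 ± 0.75 (rested Th1). Ube4b ran from 2.04 ± 0.15 (memory Th1) to 3.13 ± 0.92 (memory Th2).

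**Figure D3:**
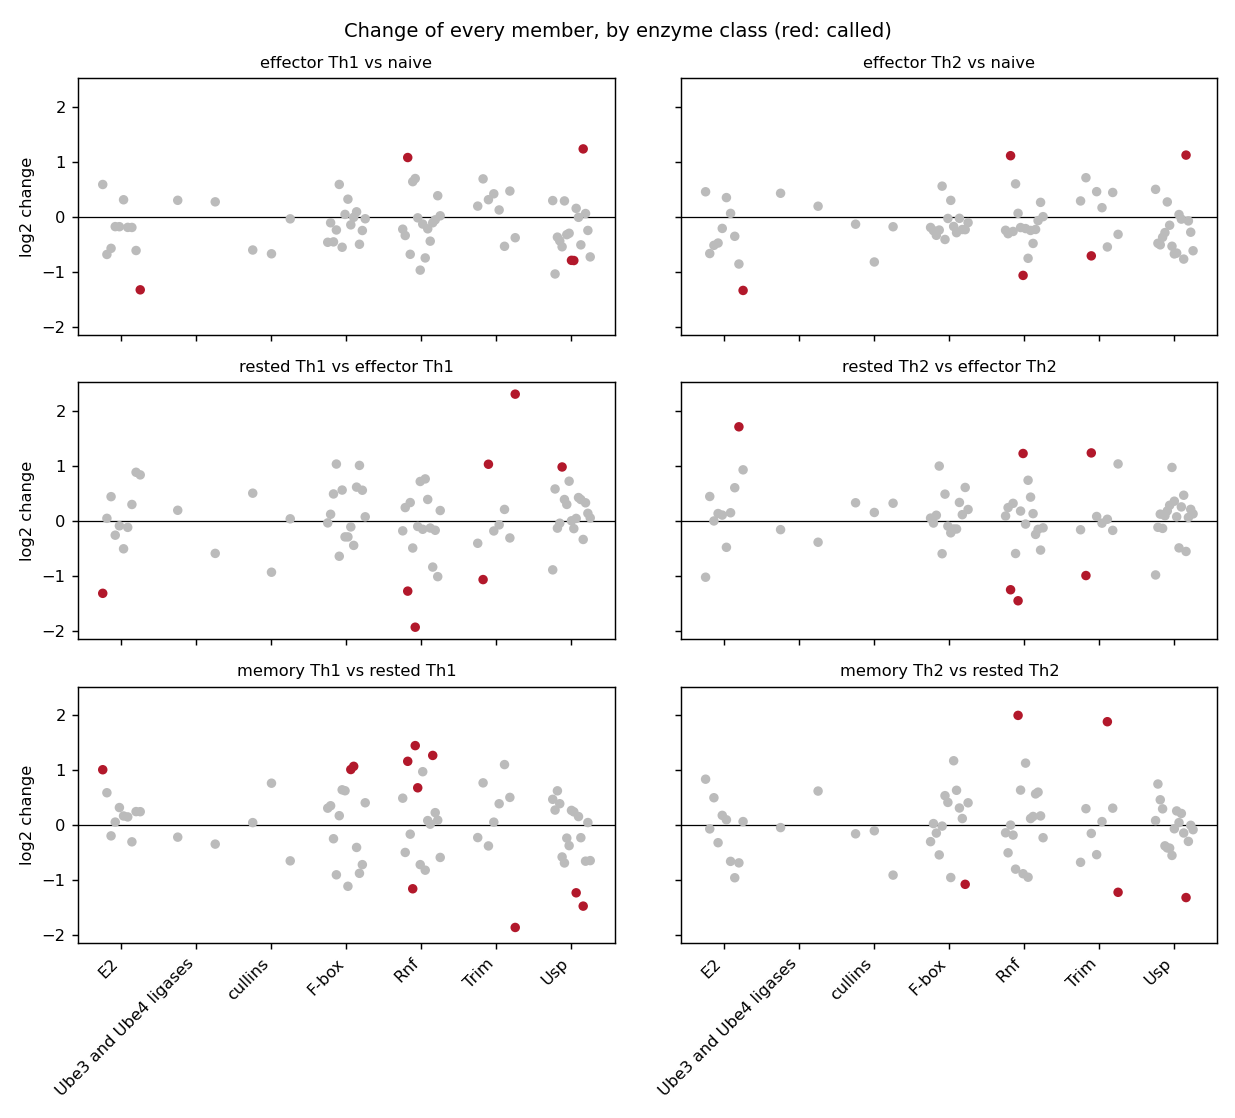
Log2 change of each of the 70 members (points, grouped by enzyme class on the x axis) in the steps from naive to effector, effector to rested and rested to memory cells, Th1 on the left and Th2 on the right, with called members in red. Rnf14 falls by 1.94 and 1.46 at rest and lies 1.45 and 2.00 higher in memory cells, and Trim44 rises by 2.31 in the Th1 rest step.

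Rnf14 had the clearest course among the Rnf ligases. It is a RING-between-RING ligase known as a co-activator of the androgen receptor. Its levels were 7.36, 6.58 and 7.24 in effector Th1, 4.83, 4.87 and 5.68 in rested Th1, and 6.42, 6.65 and 6.64 in memory Th1 samples. In the Th2 lineage it measured 6.62, 5.95 and 6.71 in effector, 4.83, 4.84 and 5.25 in rested, and 6.82, 7.09 and 7.0 in memory samples. The 6 rested samples lay below all other samples of the study. The fall from effector to rested cells was -1.94 ± 0.29 (adjusted p = 7.7e-05) in Th1 and -1.46 ± 0.29 (adjusted p = 0.00242) in Th2 cells. The rise from rested to memory cells was 1.45 ± 0.29 (adjusted p = 0.00219) in Th1 and 2.00 ± 0.29 (adjusted p = 0.000334) in Th2 cells. All 4 calls were kept in every fit that left out 1 sample.

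Rnf114, a RING ligase of the psoriasis susceptibility region in humans, was higher in effector cells. It measured 3.03, 3.21 and 3.32 in naive, 3.93, 4.35 and 4.54 in effector Th1, and 4.12, 4.45 and 4.35 in effector Th2 samples. At rest it measured 3.26, 2.71 and 3.00 in Th1 and 2.98, 3.03 and 3.14 in Th2 samples. Both effector groups stood clear of the naive and rested samples. The rise over naive cells was 1.08 ± 0.26 (adjusted p = 0.00831) in Th1, lost without effector Th1 sample 3 (adjusted p = 0.0558), and 1.11 ± 0.26 (adjusted p = 0.00699) in Th2 cells. The fall at rest was -1.28 ± 0.26 (adjusted p = 0.0016) in Th1 and -1.25 ± 0.26 (adjusted p = 0.00349) in Th2 cells. Memory Th1 samples measured 4.64, 3.85 and 3.96, a rise of 1.16 ± 0.26 over rested cells (adjusted p = 0.00508). Memory Th2 samples, at 2.79, 3.47 and 2.88, spanned the range of the rested Th2 samples. The memory steps of the lineages differed by 1.16 ± 0.36 (unadjusted p = 0.00475, adjusted p = 0.35), which was not called.

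Rnf130 and Rnf167 are membrane ligases with a protease-associated domain. Rnf130 measured 3.19, 4.04 and 4.08 in rested Th1 and 2.68, 2.46 and 2.68 in memory Th1 samples, without overlap. It fell by 1.16 on the log2 scale (SE 0.29, adjusted p = 0.0104). With the sample number as a block, Rnf130 was also called in the Th2 memory step (-0.81, adjusted p = 0.0414). Rnf167 measured 4.40, 4.87 and 5.12 in naive, 3.62, 3.71 and 3.86 in effector Th2, and 4.64, 4.98 and 5.25 in rested Th2 samples, the effector samples lowest. Its changes were -1.07 ± 0.33 (adjusted p = 0.0479) to effector Th2 and 1.23 ± 0.33 (adjusted p = 0.0245) at rest. Each was called in 1 of 6 fits that left out 1 sample, the first only without naive sample 1 and the second only without rested Th2 sample 1, with adjusted p up to 0.191 and 0.102. The dimmer Rnf167 reporter changed by -0.26 (adjusted p = 0.848) and 0.61 (adjusted p = 0.514). In Th1 cells the brighter reporter changed by -0.97 (adjusted p = 0.0752) to effector cells and by 0.72 (adjusted p = 0.157) at rest. With the sample number as a block both were called (adjusted p = 0.0076 and 0.0313). This block also called its memory steps in Th1 (-0.72) and Th2 cells (-0.89) and memory Th1 against naive cells (-0.97). The dimmer reporter changed by -0.28 and 0.52 in the Th1 effector and rest steps, not called without the block.

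Rnf44 measured 4.17, 4.19 and 4.55 in rested Th1 and 5.15, 5.75 and 5.80 in memory Th1 samples, all memory samples higher. The rise was 1.27 ± 0.31 (adjusted p = 0.00848). Rnf144a, a RING-between-RING ligase, changed by 0.68 in that step (adjusted p = 0.0336), a call kept only without rested Th1 sample 3 among 6 fits (adjusted p up to 0.112). Its memory samples, 8.10 to 8.34 in Th1 and 8.15 to 8.48 in Th2, lay above its other 15 samples. With the sample number as a block, Rnf144a was also called in the Th2 memory step (0.64, adjusted p = 0.0239). Rnf220 was called by the F test and, with the sample number as a block, also in effector Th1 against naive cells (-0.75, adjusted p = 0.0495), the Th1 rest step (0.77, adjusted p = 0.0306) and the memory steps of Th1 (-0.82, adjusted p = 0.0184) and Th2 cells (-0.95, adjusted p = 0.0208). The other Rnf members, among them Rnf8 of the DNA damage response and the SUMO-targeted ligase Rnf4, were called in no comparison, except that the block called Rnf6 in the Th1 rest step and Rnf17 in both memory steps.

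The Trim proteins held the largest single change of the members. Trim44, which lacks the RING domain of its family, measured 2.99, 3.79 and 3.67 in effector Th1, 5.30, 5.86 and 6.22 in rested Th1 and 4.39, 3.25 and 4.13 in memory Th1 samples. The 3 rested Th1 samples were the highest of all 21. The rise at rest was 2.31 ± 0.34 (adjusted p = 6.6e-05) and the fall to memory -1.87 ± 0.34 (adjusted p = 0.00101), both kept in every fit that left out 1 sample. Rested Th2 samples measured 4.48, 4.51 and 4.75, above the effector Th2 samples at 3.20, 3.57 and 3.86, with a change of 1.04 ± 0.34 (adjusted p = 0.0687, and 0.018 with the sample number as a block). The rest steps of the lineages differed by 1.27 ± 0.48 (unadjusted p = 0.0147, adjusted p = 1.0), which was not called. The fall to memory Th2, -1.23 ± 0.34 (adjusted p = 0.0448), was lost without any 1 of the 6 samples (adjusted p up to 0.145).

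Trim30d belongs to a cluster of closely similar Trim30 genes, so a cDNA reporter may also have bound transcripts of its relatives. It measured 4.42, 4.63 and 4.64 in naive, 4.91, 4.84 and 4.86 in effector Th1, and 3.88, 3.89 and 3.78 in effector Th2 samples. Rested samples were at 5.79, 5.84 and 6.08 in Th1 and 4.96, 5.08 and 5.21 in Th2 cells. Within each lineage the rested samples stood above the effector samples, and at both stages the Th1 samples stood above the Th2 samples. The rise at rest was 1.03 ± 0.21 (adjusted p = 0.00204) in Th1 and 1.24 ± 0.21 (adjusted p = 0.000714) in Th2 cells. Effector Th2 cells differed from naive cells by -0.71 (adjusted p = 0.0413), lost without any 1 of the 6 samples (adjusted p up to 0.149). Memory Th1 samples, at 5.15, 5.53 and 5.89, lay 0.96 ± 0.21 above naive cells (adjusted p = 0.0383), lost without any 1 naive sample or memory Th1 sample 3 (adjusted p up to 0.161).

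Trim28, the corepressor of KRAB zinc finger proteins, was a dim reporter that was lower in rested than in effector cells. It measured 3.16, 3.75 and 3.78 in effector Th1 and 2.68, 2.54 and 2.27 in rested Th1 samples, then 3.26, 3.74 and 3.76 in effector Th2 and 2.53, 2.55 and 2.69 in rested Th2 samples. Neither pair of groups overlapped. The falls were -1.07 ± 0.27 (adjusted p = 0.00937) in Th1, lost without effector Th1 sample 3 (adjusted p = 0.0541), and -0.996 (adjusted p = 0.0275) in Th2, kept only without effector Th2 sample 1 (adjusted p up to 0.134). Trim36, also dim, measured 0.82, 1.00 and 1.93 in rested Th2 and 4.24, 2.00 and 3.16 in memory Th2 samples, nearly touching. Its change of 1.88 ± 0.51 (adjusted p = 0.0448) was lost without rested Th2 sample 1 or 2 or memory Th2 sample 1 or 3 (adjusted p up to 0.199). Trim27 was called by the F test and, with the sample number as a block, in the Th2 memory step (-0.68, adjusted p = 0.0477). Trim32, Trim35 and Trim37 were not called by the F test without a block, nor in any comparison with or without the sample number as a block.

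Among the proteases, the brighter Usp5 reporter had its highest group means in effector cells and its lowest in memory cells. Usp5, or isopeptidase T, takes apart free ubiquitin chains. It measured 2.61, 2.67 and 2.22 in naive, 3.90, 3.56 and 3.75 in effector Th1, 3.20, 3.97 and 3.03 in rested Th1, and 1.91, 1.97 and 1.89 in memory Th1 samples. Effector Th2 samples were at 3.63, 3.50 and 3.75, rested Th2 at 3.06, 2.87 and 3.28, and memory Th2 at 2.06, 1.56 and 1.62. All effector and rested samples lay above all naive samples, and all memory samples below them.

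The rise of Usp5 from naive to effector cells was 1.24 ± 0.25 (adjusted p = 0.00189) in Th1 and 1.13 ± 0.25 (adjusted p = 0.00479) in Th2 cells. The fall from rested to memory cells was -1.48 ± 0.25 (adjusted p = 0.000521) in Th1 and -1.32 ± 0.25 (adjusted p = 0.0036) in Th2 cells. These 4 calls were kept in every fit that left out 1 sample. A second, slightly dimmer Usp5 reporter fell by 1.93 from rested to memory Th1 cells (adjusted p = 0.00394). To effector Th1 and Th2 cells it changed by 0.52 (adjusted p = 0.574) and 0.41 (adjusted p = 0.71), and to memory Th2 cells by -0.54 (adjusted p = 0.485). In the rest steps it changed by 0.84 (adjusted p = 0.185) in Th1 and 0.03 (adjusted p = 0.992) in Th2 cells. The brighter reporter changed by -0.34 and -0.56 there, so the reporters differed in direction at rest. Memory Th1 and Th2 cells differed from naive cells by -0.57 and -0.11 on the dimmer reporter and by -0.58 and -0.75 on the brighter.

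Usp39, a splicing factor without protease activity, measured 2.68, 1.99 and 2.90 in rested Th1 and 0.94, 1.41 and 1.52 in memory Th1 samples, all memory samples lower. It fell by 1.24 (SE 0.27, adjusted p = 0.00469) on the log2 scale. Usp2 differed by 0.98 between rested and effector Th1 cells (adjusted p = 0.0193), lost without effector Th1 sample 1 or 3 or rested Th1 sample 3 (adjusted p up to 0.109). Usp33 and Usp38 differed by -0.79 (adjusted p = 0.0498) and -0.80 (adjusted p = 0.0474) between effector Th1 and naive cells. Usp33 was kept only without effector Th1 sample 3 and Usp38 in none of the 6 fits, with adjusted p up to 0.197 and 0.182. With the sample number as a block, Usp33 was also called in effector Th2 against naive cells (-0.68, adjusted p = 0.0146). By their brightest reporters, the other 12 proteases, among them Usp8, were called in no comparison without the block, and with it Usp3 was called in both rest steps and Usp9x in memory Th1 against naive cells. Second reporters of 2 of these genes were called. That of Usp1, which deubiquitinates PCNA and FANCD2, changed by -1.36 ± 0.41 (adjusted p = 0.0277) in the Th1 rest step, where the first changed by -0.89 ± 0.50 (adjusted p = 0.264). That of Usp25 changed by 0.99 ± 0.24 (adjusted p = 0.00947) from naive to effector Th1 cells, where the brighter one changed by -0.32 ± 0.30 (adjusted p = 0.644), and no direction is given for the gene.

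Of the 40 called differences of single members, 9 were called under each of the 8 other settings tried and in every fit that left out 1 sample. They were those of Rnf14 at rest in both lineages and in the Th2 memory step, of Usp5 in effector Th1 cells and the Th1 memory step, of Trim44 in both Th1 steps, of Rnf114 in the Th1 rest step and of Trim30d in the Th2 rest step. Centring each array on its median ended 14 calls, among them Ube2v1 in both effector groups, Trim30d in the Th1 rest step, Trim28 in the Th2 rest step and both calls of Rnf167. With the spot pattern as a random block, 8 calls ended, among them those of Rnf114 in both effector groups and the Th2 rest step. Fitting only the compared groups ended 18, among them the Th1 memory steps of Rnf14, Rnf114, Rnf130, Rnf44 and Usp39 and the Th2 memory step of Usp5. The mean over its reporters ended 5, among them Usp5 in effector Th2 cells and the Th2 memory step, and Ube2s.

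**Figure D4:**
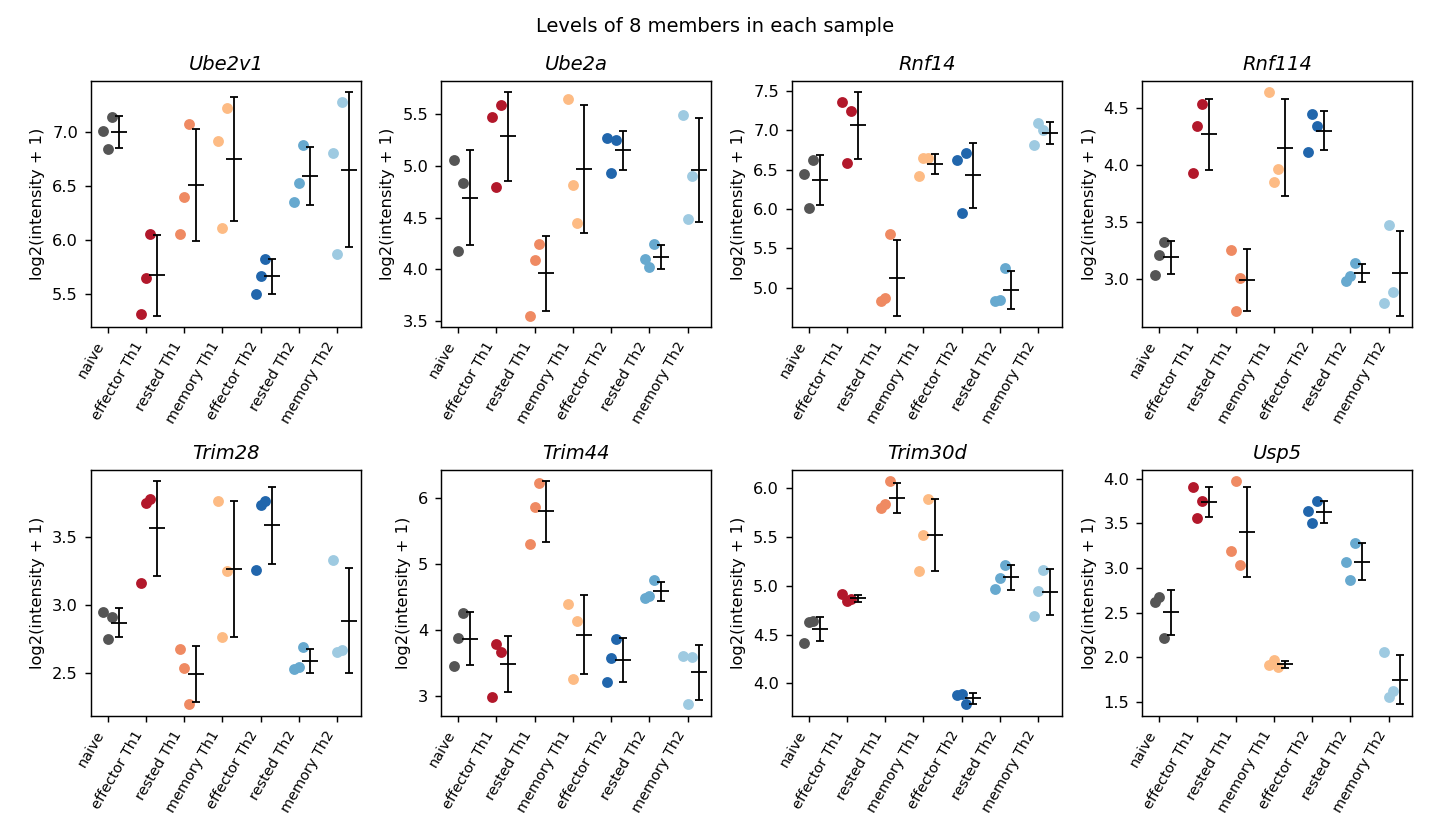
Level of 8 members as log2(intensity + 1) on the y axis in every sample (points) of the 7 groups on the x axis, with the group mean and SD (bars, n = 3). The y axes differ between panels and do not start at 0; Rnf14 drops in both rested groups and Trim44 peaks in rested Th1 samples, at 5.30 to 6.22.

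Th1 and Th2 cells of the same stage were compared to ask whether lineage went with any of these enzymes. None of the 70 members was called at the effector stage (2 with an unadjusted p under 0.05 in limma, and 0.18% of reporters called), at rest (5, and 0.361%) or in memory cells (4, and 0.2%). The differences ran from -0.56 to 1.02, from -0.94 to 1.21 and from -1.09 to 1.10, with a median SE of 0.33. Over members, the 95% intervals reached from -1.70 to 1.70 at the effector stage, so differences of that size were not detectable for every member.

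The member with the largest effector difference was Trim30d, 1.02 higher in Th1 (SE 0.21, 95% interval 0.58 to 1.47, adjusted p = 0.0603). At rest Trim30d differed by 0.82 (interval 0.37 to 1.27, adjusted p = 0.114) and Trim44 by 1.21 (interval 0.51 to 1.91, adjusted p = 0.152). With the sample number as a block, 1 member was called at the effector stage, Trim30d (adjusted p = 0.00556), and 2 at rest, Trim30d (adjusted p = 0.0214) and Trim44 (adjusted p = 0.0326). With the spot pattern, which every same-numbered pair of Th1 and Th2 samples shared, as a random block, 2, 10 and 6 members were called at the effector, rested and memory stage, where 2.42%, 20.1% and 7.93% of all reporters were called. The test of whether a step differed between lineages called 0 members for the rest step (3 with an unadjusted p under 0.05, and 0.1% of reporters called) and 0 for the memory step (2, and 0.0601%). With the spot pattern as a block these became 3 and 9, beside 7.97% and 16.5% of reporters.

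Other genes of the pathway were taken from a list of 170 names, of which 58 had a single-gene reporter, and 15 of these (25.9%) were called by the F test, against 27.2% of all reporters. In effector against naive cells, 6 of 58 (10.3%) were called in Th1, 4 higher and 2 lower, and 6 (10.3%) in Th2, 3 in each direction, against 9.88% and 9.13% of reporters. The rest step gave 9 in Th1 (15.5%, 5 higher and 4 lower) and 3 in Th2 (5.17%, 2 higher and 1 lower), against 16.2% and 7.57%. The memory step gave 9 in Th1 (15.5%, 3 higher and 6 lower) and 1, lower, in Th2 (1.72%), against 17.8% and 3.91%. Rchy1, a RING ligase of p53, rose by 2.67 ± 0.33 (adjusted p = 7.85e-06) in Th1 and 2.50 ± 0.33 (adjusted p = 1.96e-05) in Th2 effectors. At rest it changed by -2.03 (adjusted p = 0.000184) and -2.16 (adjusted p = 0.000158). With the mean over all Rchy1 reporters, the changes to effector cells were 1.02 (adjusted p = 0.0355) and 0.84 (adjusted p = 0.0976), and those at rest -1.05 (adjusted p = 0.0201) and -0.90 (adjusted p = 0.08), so both Th2 calls ended. Birc6, a giant conjugating enzyme and ligase that restrains apoptosis, rose by 2.68 ± 0.32 (adjusted p = 7.97e-06) in the Th1 rest step and fell by 2.10 (adjusted p = 0.000236) to memory Th1 cells. Uhrf1, a ligase of DNA replication and methylation, rose by 1.24 (adjusted p = 0.00148) and 1.30 (adjusted p = 0.000942) in Th1 and Th2 effectors. The calls named for Rchy1, Birc6 and Uhrf1 were kept in every fit that left out 1 sample.

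Some markers of other cells were called in these comparisons. In both effector groups against naive cells Lyz2, Fcer1g and S100a9 were lower and Fn1 was higher, and the other measured markers were not called. In the Th1 rest step Lgmn, Csf3r and Itga2b were higher and Fn1 was lower. In the Th1 memory step Lgmn, Lyz2, Ltf, S100a9, Alas2, Itga2b and Sparc were lower. Fn1 was lower in the Th2 rest step and Lgmn in the Th2 memory step. Both memory groups had lower Lyz2, Fcer1g and S100a9 than naive cells, and memory Th1 cells also lower Ltf. Ltf, S100a9 and Lyz2 were lower in memory Th1 than in memory Th2 cells. Sparc was higher in rested Th1 than in rested Th2 cells. The summed intensity of the 4 measured of 10 myeloid markers (Lyz2, Fcer1g, Itgam and Lgmn) was 113 to 139 in naive, 24.2 to 28.0 in effector Th1, 39.3 to 57.1 in rested Th1 and 10.8 to 17.8 in memory Th1 samples. In Th2 cells it was 24.6 to 34.8, 33.7 to 46.7 and 21.4 to 25.1 at the same stages. The 3 measured of 6 granulocyte markers summed to 148 to 245 in naive, 58.8 to 170 in effector Th1 and 231 to 374 in rested Th1 samples. The 2 measured of 7 stromal markers (Fn1 and Sparc) summed to 34.3 to 54.9 in naive and 123 to 185 in effector samples. They summed to 37.9 to 93.0 in rested Th1, 40.5 to 57.0 in rested Th2, 27.2 to 41.0 in memory Th1 and 27.8 to 44.1 in memory Th2 samples. The 2 of 7 erythroid and platelet markers (Alas2 and Itga2b) summed to 10.97 to 15.3 in rested Th1 and 2.64 to 5.62 in memory Th1 samples, and to 5.19 to 8.70 in the other groups. The part of these markers' cells in the members' changes was not tested.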

How the data were processed

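Intensities of 42 cDNA arrays were used as the authors deposited them, 1 value per spot with no background or normalization step stated; the image reader is not given in the sources used here. The series' value table held the deposited intensities times 1 constant per array, with medians of 0.936 to 1.15. Array medians ran from 5.74 to 12.99, and the number of arrays limits the precision.

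Arrays were quantile-normalised, 1 was added, log2 taken, and spots of a reporter and arrays a and b of a sample averaged. Genes were named from the platform's probe table: 3626 reporters had 1 gene symbol, 172 several and 1194 none here; 9 reporters of several genes that held a matching symbol were not used. Differences were tested with limma 3.58.1 in R 4.3.3 over 21 samples in 7 groups, with Benjamini-Hochberg adjustment over 4992 reporters for each of 11 comparisons, 2 interactions and the F test; the code was tested on simulated data. Figures used Python 3.11.15 and matplotlib 3.10.9.

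Deviations from group means of same-numbered samples correlated at 0.139 to 0.909 in every pair. That is only a hint from the data that the numbers pair the samples, since the labels state no shared origin. The main fit did not use the numbers, so its SEs, p-values and counts are unpaired. The number as a block was fitted as an alternative. Blocked counts stand beside those they moved.

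Ube2v1 was always named, with called members whose groups did not overlap (up to 10 a direction) and the member with the largest F of each class; others were named where a class was described. Members and lists were chosen with earlier results of these data known. Alternatives were other normalization, the series' value table, a pseudocount of 10, dim reporters left out, the number as a block, the spot pattern as a random block, the mean over reporters, only the compared groups, and each sample left out.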

Additional observations from a re-analysis of the deposited data

How the results depend on the processing

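Of 40 called differences of single members, 19 were kept in every fit that left out 1 sample and 21 were lost in at least 1. Kept were 40 with the replicate block, 39 with the series' value table, 39 with a pseudocount of 10, 38 without the dimmest 25% of reporters, which took Usp39 and Trim36 out of the fit, 35 with the mean over reporters, 32 with the spot pattern as a random block, 26 with median centring and 22 with only the compared groups in the fit; 9 were kept everywhere.

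Counts of called members moved as follows. With the replicate block, which pairs samples by number, they were 9 and 8 for effector Th1 and Th2 against naive, 16 and 11 for the rest steps, 20 and 13 for the memory steps, 6 for memory Th1 against naive, 1 for effector Th1 against Th2 and 2 for rested Th1 against Th2, and 30 by the F test. With the pattern as a block they were 26 and 22 for memory Th1 and Th2 against naive, 2, 10 and 6 for Th1 against Th2 at the effector, rested and memory stage, and 3 and 9 for the lineage differences of the rest and memory steps. With median centring they were 2 for both effector steps, 2 for the Th2 memory step and 0 for memory Th1 against naive. Under that setting, reporters as a whole had a median difference of -0.13 in effector Th1 against naive, where quantile normalisation gave -0.05. The same medians were 0.11 and 0.09 in memory against rested Th1. With only the compared groups, the counts were 11 in the Th2 rest step and 2 and 1 in the memory steps. Memory Th1 against naive then gave 0. The mean over reporters gave 3 for effector Th2 against naive. Effector Th1 against Th2 gave 1 with the series' value table, a pseudocount of 10, dim reporters left out or the mean over reporters; rested Th1 against Th2 gave 2 with the first and the second of these, and memory Th1 against naive gave 2 with a pseudocount of 10.

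Leaving out 1 sample gave 2 to 3 members in each effector step, 5 to 9 and 3 to 4 in the rest steps, 7 to 15 and 2 to 6 in the memory steps, 0 to 3 and 0 to 0 in memory Th1 and Th2 against naive, 0 to 0, 0 to 0 and 0 to 2 for Th1 against Th2 at the effector, rested and memory stage, 0 to 0 for both lineage differences, and 15 to 21 by the F test.

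Ube2v1 changed sign only in comparisons where it was not called. Leaving out 1 sample, its difference ran from -0.25 to 0.45 in the Th2 memory step (without memory Th2 3 and 2), with -0.057 without rested Th2 1 and -0.013 without memory Th2 1. It ran from -0.49 to 0.072 for memory Th1 against naive (without memory Th1 3 and 2), with 0.036 under median centring, and from -0.66 to 0.044 for memory Th2 against naive (without memory Th2 3 and 2). Between lineages it ran from -0.18 (without effector Th1 3) to 0.19 at the effector stage, with -0.069 without effector Th2 1. At rest it ran from -0.36 to 0.15 (without rested Th1 1), with 0.066 without rested Th2 3. In memory cells it ran from -0.29 (without memory Th2 2) to 0.42, with -0.14 without memory Th1 3. The cause was not tested for any of these values. Usp5, Trim28, Usp39, Trim36, Fbxo7, Fbxo8, Fbxw5 and Usp2 had mean levels below the median reporter, where the added 1 understates a change.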
